A study of Homo sapiens with 9 samples.

Results

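Translation of an mRNA into protein begins at its start codon, the boundary between the 5′ untranslated region (UTR) and the coding sequence (CDS). The small ribosomal subunit, carrying initiation factors such as the multisubunit eIF3 complex, loads near the 5′ end of the mRNA and scans toward this codon, while RNA helicases such as DDX3 open structured 5′ UTRs in its path. Sequence around the codon, in particular a purine upstream of it, helps the scanning subunit to recognize it.

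The regions described here are peaks around start codons. Antibody-barcode eCLIP (ABC) crosslinks RNA-binding proteins (RBPs) to RNA in living cells with ultraviolet light, captures them with antibodies that carry DNA barcodes, and ligates each barcode to the RNA fragments close to it. In the multiplex format, 10 barcoded antibodies were used on one lysate, giving 10 libraries per pool. A peak was taken when its centre lay in an exon of an Ensembl canonical coding transcript, on the same strand, within 50 nt in transcript coordinates of the first base of the start codon. By this rule, which uses position and no read number, 61405 of 2478204 merged peaks of 54 libraries were start codon peaks (2.48%). They lay at 8732 start codons, 43.4% of the 20106 annotated in canonical transcripts.

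Both cell lines were untreated. K562 is an erythroleukaemia line grown in suspension and HEK293T an embryonic kidney line. The K562 pools had 3 replicates and the HEK293T pools 2, each with antibodies to DDX3, EIF3G, FAM120A, IGF2BP2, LIN28B, PRPF8, PUM2, RBFOX2, SF3B4 and ZC3H11A. The remaining 4 libraries were singleplex experiments with a single antibody, RBFOX2 in HEK293T cells and SLBP, which binds histone mRNAs, in K562 cells, with 2 replicates each. The labels do not say that replicates came from separate cultures, so the spread between them may be technical. One label field of the HEK293T pools names K562 as the cell line. Marker transcripts of K562 cells held 265 to 315 peaks per 100000 in the K562 pools and 0.299 to 0.382 in the HEK293T pools. Markers of HEK293T cells held 0.969 to 2.56 and 27.1 to 28.5, so the pools are called by the cell line in their titles. Both HEK293T pools carry the same title, which names replicate 1. They are called HEK293T replicates 1 and 2 here, and the second number is not in the title.

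Libraries held 938 to 339302 merged peaks, and the summed reads known for these peaks ran from 13351 to 4415110. Start codon peaks numbered 22 to 4123 per library, with 5698, 8583 and 8361 in K562 pools 1, 2 and 3 and 15624 and 19004 in HEK293T pools 1 and 2. DDX3 held 1227 to 4123 per library, EIF3G 222 to 1377 and PUM2, the smallest library of every pool, 22 to 127. The median start codon peak was 41 nt wide and held 5 reads, against 40 nt and 5 reads over all merged peaks. Of the start codon peaks 40.9% covered the first base of the codon itself, and 24.6% shared their start codon with another peak of the same library. The limit of the window was arbitrary: 2512 centres lay 46 to 50 nt before the first base and 2200 lay 51 to 55 nt before it, and on the coding side the numbers were 3087 and 3066.

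The start codons at which one RBP stood out most are printed to show the sequence around the codon, which not every peak covers. Each line runs 5′ to 3′ from 12 bases before the start codon to 12 bases after it, on GRCh38 and GENCODE release 44, and the capitals mark the start codon.
RHBDD2: acgacggcggccATGgcggcctcgggg
DDOST: aggaggaggaagATGgagcccagcacc
SIVA1: ggccccgcggccATGcccaagcggagc
TRIM27: caggccggcgccATGgcctccgggagt
LMNB1: ccgccgcccgccATGgcgactgcgacc
SERP1: ggcgccgcgaagATGgtcgccaagcaa
SLC38A1: cactttctaatcATGatgcatttcaaa
PAQR3: cggccgggaacgATGcatcagaagctg
PARS2: tgccagggtgtcATGgaagggctgctg
MYCBP2: gcggcggcgaggATGatgatgtgcgca
DNAL1: gcaaccgccggaATGgcgaaagcaaca
The first 3 were led by DDX3, the next 3 by EIF3G, SLC38A1 by IGF2BP2, the following 3 by LIN28B and DNAL1 by SF3B4. FAM120A, PRPF8, PUM2, RBFOX2 and ZC3H11A had no start codon that met the rule for naming. Of the annotated start codons 99.8% read ATG and 38 did not.

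To compare RBPs of different depth, the start codon peaks of each library were expressed as a share of all its merged peaks. DDX3, a DEAD-box RNA helicase, and EIF3G, an RNA-binding subunit of eIF3, had a larger share than the other RBPs of every pool. For DDX3 the share was 14.1%, 15.0% and 16% in K562 replicates 1, 2 and 3 and 11.2% and 9.57% in HEK293T replicates 1 and 2. For EIF3G it was 9.66%, 12.2% and 15.3% in K562 cells and 13% and 10.5% in HEK293T cells. The other 8 RBPs lay between 1.38% and 5.08% in all their libraries, so no library of either translation factor overlapped any of theirs.

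The mean over the 5 pools was 13.2% ± 2.71 (SD, n = 5) for DDX3 against 3.76% for the mean of the other 9 RBPs, a difference of 9.42 percentage points (exact permutation test of RBP labels within pools, two-sided, adjusted p = 0.0007 over 10 RBPs). For EIF3G it was 12.1% ± 2.21 (SD, n = 5) against 3.88%, a difference of 8.23 points (exact permutation test, adjusted p = 0.00185). Both differences were positive in 5 of 5 pools. Among the rest, LIN28B, which binds pre-let-7 and many coding sequences, had 3.83%, PUM2, a Pumilio repressor of 3′ UTRs, 3.58%, and ZC3H11A, a zinc-finger protein linked to mRNA export, 3.10%. IGF2BP2, a stabilizer of mRNAs, had 2.77%, the spliceosome components PRPF8 and SF3B4 had 2.37% and 2.36%, the splicing regulator RBFOX2 2.12% and FAM120A, an RNA-binding scaffold protein, 1.59%. None of these 8 passed the test. The smallest library set the precision: PUM2 in K562 replicate 1 had 2.35% with an exact 95% binomial interval of 1.48% to 3.53%, and DDX3 of that pool had an interval of 13.4% to 14.9%. These intervals cover counting error only.

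**Figure D1:**
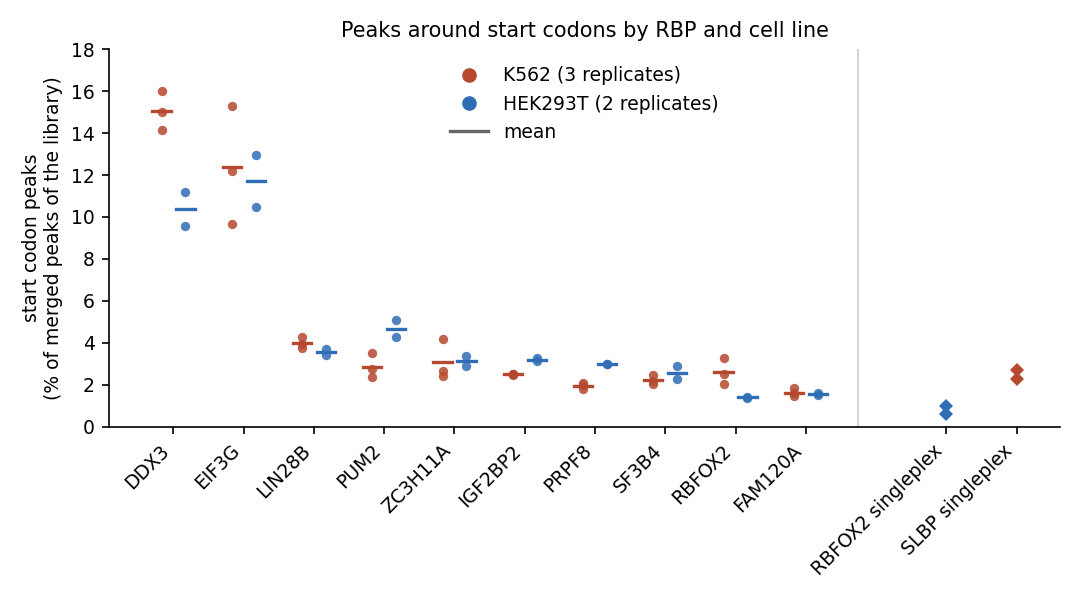
Share of merged peaks around start codons (percent, vertical axis) by RBP, with one point per library, coloured by cell line and format, and a bar at the mean. DDX3 and EIF3G lie between 9.57% and 16%, and every other multiplex library lies at or below 5.08%.

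Between cell lines, DDX3 was higher in K562 cells (15.1% ± 0.937, SD, n = 3) than in HEK293T cells (10.4% ± 1.14, SD, n = 2) and the replicates did not overlap. With 3 replicates against 2 an exact permutation test cannot go below p = 0.1, so the lines could not be separated by a test. EIF3G had 12.4% ± 2.82 (SD, n = 3) and 11.7% ± 1.78 (SD, n = 2), and its replicates overlapped. In singleplex ABC, RBFOX2 in HEK293T cells had 0.604% and 1.00%, and SLBP in K562 cells 2.68% and 2.29%.

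Against peaks in exons of canonical coding transcripts alone, which sets aside introns and noncoding RNA, DDX3 had 18.9% ± 0.791 (SD, n = 3) in K562 cells and 12.7% ± 1.27 (SD, n = 2) in HEK293T cells. EIF3G had 18.9% ± 2.81 (SD, n = 3) and 15.9% ± 2.95 (SD, n = 2). The means of the other 8 RBPs ran from 2.19% to 7.61%. Counted by reads, start codon peaks held 4.61% to 12.9% of the known reads in peaks for the DDX3 and EIF3G libraries and 0.734% to 8.23% for the others, ranges that overlapped. No read number was known for 10849 of the 2478204 merged peaks, and these added nothing to the sums. In HEK293T cells the start codon peaks of RPS25 had a read number in 3 of 20 libraries and those of ACTB in 11 of 20.

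The next question was whether peaks gathered at the codon itself or covered a wider stretch of the mRNA. Among peaks centred within 150 nt of the start codon, on 9003 transcripts long enough on both sides, an even spread would place 33.6% in the window of 50 nt on each side. DDX3 had 34.6% ± 0.819 (SD, n = 5) and EIF3G 36.4% ± 1.70 (SD, n = 5), close to that figure, and neither passed the test against the other RBPs. All 45 libraries without PUM2 lay between 31.3% and 39.2%. PUM2 had 40.6% ± 9.18 (SD, n = 5) against 34.6% for the other 9, a difference of 5.97 points (exact permutation test, adjusted p = 0.016) that was positive in 3 of 5 pools. It rested on 24 to 137 peaks per library, and without HEK293T replicate 1 or K562 replicate 1 or 2 it no longer passed.

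The flanks of the window were described with no test. In K562 cells 48.8% of DDX3 peaks within 150 nt were in the 5′ UTR before the window and 16.6% in the CDS after it, and EIF3G had 49.3% and 13.9%. PUM2 leaned the same way on 86 peaks, with 41.7% and 15.6%. LIN28B had 28.4% before and 37.8% after, and PRPF8, the core protein of the spliceosome, 30.1% and 36.6%. In HEK293T cells the DDX3 values were 41.9% and 23.5% and those of EIF3G 46.4% and 17.7%, and PUM2 had 43.4% and 19.3% on 192 peaks. In bins of 10 nt, the highest density in K562 cells lay 30 to 21 nt before the start codon for 7 of 10 RBPs, with 5.58% ± 0.366 (SD, n = 3) of the DDX3 peaks within 150 nt and 7.39% ± 1.53 (SD, n = 3) of the EIF3G peaks. In HEK293T cells this bin was the highest for 1 of 10 RBPs, DDX3, with 4.82% ± 0.107 (SD, n = 2), and for EIF3G it was the bin 100 to 91 nt before the codon, with 5.47% ± 0.131 (SD, n = 2).

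**Figure D2:**
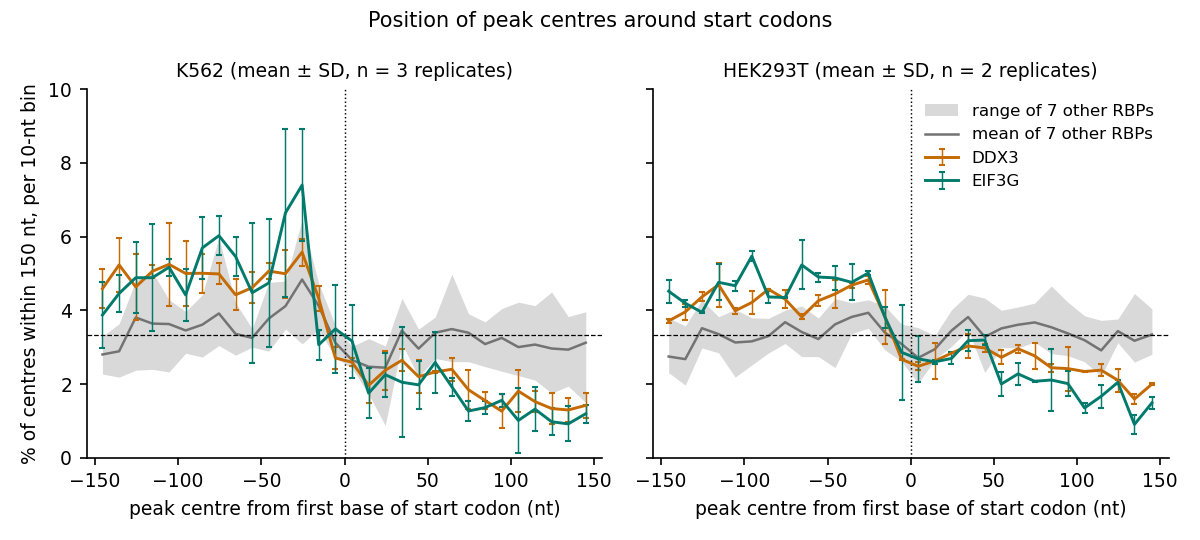
Distribution of peak centres around the start codon (percent of peaks within 150 nt per 10-nt bin, vertical axis, against distance in nt from the first base of the codon) in K562 and HEK293T cells. Lines show the mean ± SD of DDX3 and EIF3G, grey the range and mean of 7 other RBPs, and the dashed line an even spread. PUM2 is left out because it has few peaks. EIF3G reaches 7.39% 30 to 21 nt before the codon in K562 cells, and DDX3 5.58%.

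Within the window, the side of the codon was compared in the same way. EIF3G peaks lay upstream of the first base in 68.0%, 56.9% and 61.4% of cases in K562 replicates 1, 2 and 3 and in 55.8% and 54.6% in HEK293T replicates 1 and 2. Its mean of 59.3% ± 5.49 (SD, n = 5) was 8.03 points above the other 9 RBPs (exact permutation test, adjusted p = 0.0295). DDX3, with 54.6% ± 1.84 (SD, n = 5), did not pass (exact permutation test, adjusted p = 0.596). PRPF8 lay on the coding side, with 44.7% ± 2.33 upstream (SD, n = 5), a difference of -8.23 points from the others (exact permutation test, adjusted p = 0.0295). PUM2 had the highest upstream share, 63.2% ± 8.91 (SD, n = 5), 12.4 points above the others (exact permutation test, p = 1e-05, the smallest that the design allows, adjusted p = 0.0001). It rested on 22, 42 and 45 PUM2 start codon peaks in K562 replicates 1, 2 and 3 and on 95 and 127 in HEK293T replicates 1 and 2. The PUM2 call was lost when only peaks that cover the codon were used. The EIF3G call was lost without HEK293T replicate 1 or 2 or K562 replicate 2 or 3, where adjusted p ran from 0.0627 to 0.07 in the exact permutation test, and so was that of PRPF8, with adjusted p from 0.0627 to 0.07.

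Start codons often lie close to the end of the first coding exon, so the distance to a 5′ splice site was also measured. DDX3 had the lowest mean share of start codon peaks within 50 nt of one, 31.7% ± 0.759 (SD, n = 5), with 31.5%, 32.9% and 31.8% in K562 replicates 1, 2 and 3 and 31.1% in both HEK293T replicates. A single library lay below its DDX3 neighbour, PUM2 in K562 replicate 3 with 31.1%. The difference from the other 9 RBPs was -7.72 points, with the same sign in 5 of 5 pools (exact permutation test, adjusted p = 0.0106). ZC3H11A had 52.8%, 41.7% and 46.4% in K562 cells and 48.8% and 44.5% in HEK293T cells, 9.11 points above the others (exact permutation test, adjusted p = 0.0032). PRPF8, which contacts the 5′ splice site in the spliceosome, had 41.9% ± 2.48 (SD, n = 5) and EIF3G 34.8% ± 0.770 (SD, n = 5), and neither passed. With each start codon counted once per library, an exon junction lay in the window of 41.2% of those with a DDX3 peak in K562 cells. In HEK293T cells it was 39.7%, and both were the lowest of the 10 RBPs. For ZC3H11A it was 59.1% and 52.5%, and for PRPF8 57.2% and 54.2%. Of all canonical start codons, each counted once, 41.0% had a junction in the window.

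**Figure D3:**
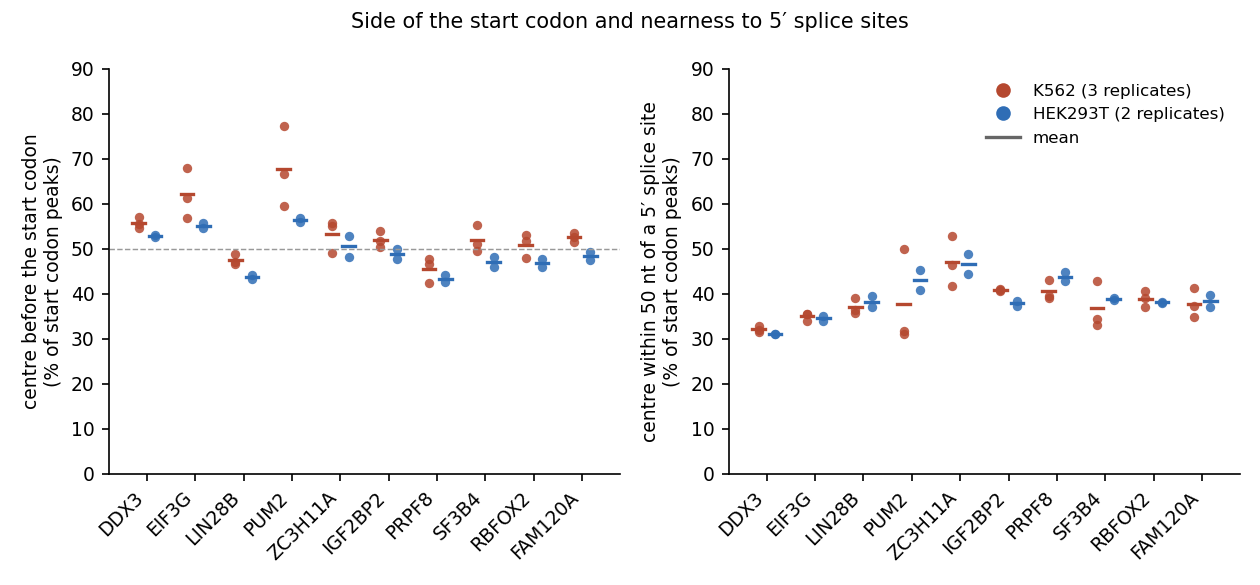
Share of start codon peaks upstream of the first base and share within 50 nt of a 5′ splice site (percent, vertical axes) by RBP, with one point per library and a bar at the mean. PUM2 and EIF3G have the highest upstream means (63.2% and 59.3%), and DDX3 the lowest mean share near 5′ splice sites (31.7%).

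Whether an RBP holds more reads at a start codon than its neighbours in the same lysate was measured against the complement control (CC), the summed reads of the other 9 libraries of the pool. CC enrichment was called at a fold above 8 together with P below 0.001, the limits of the study. In K562 cells 1959 of 5782 DDX3 start codon peaks were CC-enriched (33.9%), against 19.3% of all its merged peaks, and the share was above that of all peaks in 3 of 3 replicates. In HEK293T cells it was 1920 of 8212 (23.4%), against 13.2%, in 2 of 2 replicates. For EIF3G, 388 of 1295 start codon peaks were CC-enriched in K562 cells (30.0%) and 456 of 2498 in HEK293T cells (18.3%), against 28% and 18.9% of all its peaks. These sums are near their backgrounds but join unlike replicates. The share was above that of all peaks in 2 of 3 K562 replicates and 1 of 2 HEK293T replicates. It was 40.5% against 25.3%, 35.2% against 29.8% and 22.2% against 28.0% in K562 replicates 1, 2 and 3. In HEK293T replicates 1 and 2 it was 20.9% against 23.7% and 16.1% against 15.7%. DDX3 and EIF3G reads are part of each other's CC.

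For the other 8 RBPs start codon peaks were CC-enriched less often than peaks at large in both lines when replicates were summed. LIN28B had 22.8% against 34.2% of all its peaks in K562 cells and 11.5% against 25.2% in HEK293T cells. PUM2 had 20.2% against 26.7% and 11.3% against 19%. The splicing factors were far lower. PRPF8 had 4.82% against 21.3% and 7.40% against 19.7%, SF3B4, which binds near the branch point, had 4.30% against 28.2% and 2.40% against 23.3%, and RBFOX2 had 0.689% against 9.25% and 1.30% against 4.16%. ZC3H11A had 7.42% against 19.4% and 2.99% against 11.5%, and IGF2BP2 2.84% against 11.3% and 1.06% against 5.29%. FAM120A had 0.606% against 15.8% and 0.372% against 18%. In singleplex ABC, over the external RNA-seq background that replaces the CC there, RBFOX2 had 1.71% of start codon peaks enriched against 10% of all peaks and SLBP 52.2% against 55.3%. The SLBP figures join unlike libraries, with 36.1% against 37.8% in replicate 1 and 100% against 99.9% in replicate 2, so neither figure describes a library.

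Between RBPs, the CC-enriched share of start codon peaks was 38.5%, 42.6% and 25.0% for DDX3 in K562 replicates 1, 2 and 3 and 26.0% and 20.8% in HEK293T replicates 1 and 2. Its mean was 21.5 points above that of the other 9 RBPs (30.6% against 9.09%, exact permutation test, adjusted p = 0.0002). EIF3G had 40.5%, 35.2% and 22.2% in K562 cells and 20.9% and 16.1% in HEK293T cells, 17.5 points above the others (27.0% against 9.48%, exact permutation test, adjusted p = 0.00515). LIN28B (18%) and PUM2 (17.8%) lay above the mean of the others in 5 of 5 pools without passing. This test did not set an RBP against the CC-enriched share of all its own peaks, 28% and 18.9% for EIF3G in K562 and HEK293T cells. Its result for EIF3G is therefore no measure of a preference for start codons. Libraries also differed in their share of the pool, 1.77% to 2.38% for EIF3G and 24.6% to 36.8% for FAM120A. ZC3H11A, with 3.14% to 4.72%, had 5.76% of start codon peaks CC-enriched. The part of this share in the ranking was not tested. Seen from the other direction, start codon peaks made up 26.6% ± 2.72 (SD, n = 3) of all CC-enriched DDX3 peaks in K562 cells and 18.3% ± 0.195 (SD, n = 2) in HEK293T cells, and 14% ± 1.71 (SD, n = 3) and 11.1% ± 0.488 (SD, n = 2) of those of EIF3G. For the other 8 RBPs these means lay between 0.0321% and 2.7%.

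The CC reads behind a call were read from the deposited statistic, and how well this worked differed between lines. A whole number of CC reads was found for 94.8% of the CC-enriched start codon peaks in K562 cells and 55% in HEK293T cells. In HEK293T cells 20% of them had fewer CC reads than 50% of what the peaks of the other 9 libraries held at the site, against 1.07% in K562 cells. With peaks of whole CC reads alone, a choice made after seeing the data, the differences of DDX3 and EIF3G were 22.6 and 19.5 points (exact permutation test, adjusted p = 0.0009 and 0.00595). The RBFOX2 calls in HEK293T cells did not hold up, as 1 of 66 remained, and those of PRPF8 fell from 446 to 163.

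**Figure D4:**
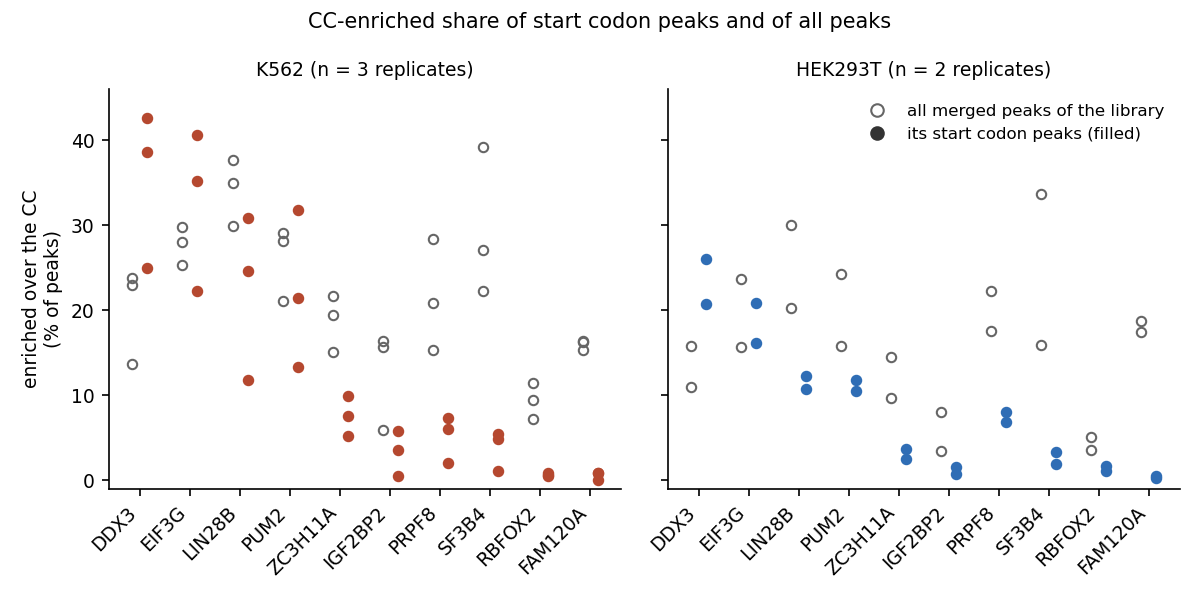
CC-enriched share of start codon peaks (filled points) and of all merged peaks (open points), in percent on the vertical axis, for each multiplex library by RBP. DDX3 is the RBP whose start codon peaks lie above its other peaks in all 5 pools.

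Start codons called in every replicate of a line were then counted. DDX3 had a peak at 607 start codons in all 3 K562 replicates, of 2899 with a DDX3 peak in any, and at 2233 of 4763 in both HEK293T replicates. EIF3G had 85 of 781 and 498 of 1674. With CC enrichment in every replicate, DDX3 kept 100 start codons in K562 cells (90 with whole CC reads throughout) and 318 in HEK293T cells (139). LIN28B had 26 in each line (26 and 11 with whole CC reads), and EIF3G had 12 and 32 (12 and 15). In K562 cells IGF2BP2, PUM2 and SF3B4 had 1 each, that of PUM2 beside a sequence like the barcode adapter, and the other 4 RBPs had 0. In HEK293T cells PRPF8 had 32 and RBFOX2 8, of which 4 and 0 had whole CC reads. Of the CC-enriched start codons of DDX3, 42 were shared by both lines, 42% of the K562 list and 13.2% of the HEK293T list. For LIN28B 10 were shared (38.5% of each) and for EIF3G 4 (33.3% and 12.5%). The lists of the lines are not alike, since K562 calls had to pass 3 replicates and HEK293T calls 2. K562 replicate 3 was also called on another deposited test. In it 13.7% of all DDX3 peaks were CC-enriched, against 22.9% and 23.8% in replicates 1 and 2.

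The DDX3 start codon with the highest mean fold in K562 cells was that of RHBDD2, a rhomboid-like membrane protein (chromosome 7, first base at 75879083, plus strand, 5′ UTR of 49 nt). In K562 replicates 1, 2 and 3 its DDX3 peak held 12, 9 and 23 reads, against 14, 1 and 11 reads for the other 9 libraries together. The log2 fold was 4.01 and 4.79 in replicates 1 and 3, and none is given for replicate 2, where the CC held 1 read. In HEK293T cells it held 29 and 26 reads against 20 and 25, log2 folds of 4.23 and 3.95. All 5 replicates were CC-enriched.

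DDOST, a subunit of the oligosaccharyltransferase of the endoplasmic reticulum (chromosome 1, 20661350, minus strand, 5′ UTR of 19 nt), had 9, 8 and 18 DDX3 reads in K562 cells against 9, 0 and 16 in the CC. In HEK293T cells it had 35 and 19 reads against 40 and 42, log2 folds of 3.50 and 2.75, and the second was not enriched. SIVA1, a regulator of apoptosis (chromosome 14, 104753202, plus strand, 5′ UTR of 55 nt), had 5, 3 and 16 DDX3 reads in K562 cells against 3, 1 and 9. It was enriched in both HEK293T replicates too, with 11 and 24 reads against 7 and 32 (log2 folds of 4.35 and 3.47). The read numbers behind the DDX3 leaders were small, and their order among the 100 rests on few CC reads.

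The EIF3G leaders had longer 5′ UTRs. LMNB1, which encodes lamin B1 of the nuclear envelope (chromosome 5, 126777509, plus strand, 5′ UTR of 373 nt), had 17, 28 and 26 EIF3G reads in K562 cells against 57, 64 and 84 in the CC, log2 folds of 3.98, 4.60 and 3.75. In HEK293T cells it had 38 and 25 reads against 118 in both, log2 folds of 3.73 and 3.13, so it was enriched in all 5 replicates. SERP1, a small protein of the endoplasmic reticulum (chromosome 3, 150546135, minus strand, 5′ UTR of 361 nt), had 11, 34 and 18 reads in K562 cells against 26, 84 and 43, log2 folds of 4.48, 4.49 and 4.19. In HEK293T cells it had a peak in replicate 2 only, which was not enriched. TRIM27, a ubiquitin ligase (chromosome 6, 28923632, minus strand, 5′ UTR of 353 nt), had 6, 7 and 13 reads against 11, 15 and 23 in K562 cells, log2 folds of 4.85, 4.70 and 4.62, and no EIF3G peak in HEK293T cells.

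IGF2BP2 had a single such start codon in K562 cells, that of SLC38A1, a glutamine transporter (chromosome 12, 46239800, minus strand, 5′ UTR of 726 nt), with 15, 16 and 21 reads against 10, 9 and 6 and log2 folds of 4.01, 4.36 and 4.09. In HEK293T replicate 1 it had 23 reads against 26 and was not enriched (log2 fold 2.91), and in replicate 2 it had 14 reads and no whole number of CC reads. LIN28B peaks at PAQR3, a Golgi membrane protein (chromosome 4, 78939224, minus strand, 5′ UTR of 214 nt), were centred 29 to 34 nt inside the CDS in K562 cells and held 18, 20 and 10 reads against 3, 7 and 5, with log2 folds of 5.63 and 5.15 in replicates 2 and 3. In HEK293T cells LIN28B peaks at the same place held 7 and 3 reads, with no whole number of CC reads. MYCBP2, a ubiquitin ligase (chromosome 13, 77326775, minus strand), had 3, 8 and 7 LIN28B reads in K562 cells against 1, 8 and 1. At PARS2, the mitochondrial prolyl-tRNA synthetase (chromosome 1, 54759161, minus strand), LIN28B peaks of 3 to 8 reads lay on both sides of its single exon junction in all 5 replicates. SF3B4 peaks at DNAL1, a light chain of axonemal dynein (chromosome 14, 73645040, plus strand), held 3 to 6 reads in K562 cells and also lay on both sides of a junction. Peaks on the 2 sides of a junction were counted separately, though in the spliced mRNA they adjoin.

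The start codons led by DDX3 and EIF3G were set beside canonical ones at large. The 100 start codons CC-enriched for DDX3 in all K562 replicates had a median 5′ UTR of 81.5 nt, and the window around the codon was 70.6% G and C at the median, against 131 nt and 61.4% over all canonical coding transcripts. An ATG upstream of the start codon was present in 12% of them, against 41.7%, and 85% lay in the first exon, against 63.3%. Start codons with a peak of any of the 10 RBPs in K562 cells lay between, with 124 nt, 64.9%, an upstream ATG in 34.2% and 65.9% in the first exon. For the 12 CC-enriched start codons of EIF3G the medians were 333 nt and 71.3%, and 16.7% held an upstream ATG. In HEK293T cells the 318 DDX3 start codons had medians of 112 nt and 73.3%, and the 32 of EIF3G 379 nt and 67.3%. There 26.7% of the DDX3 start codons held an upstream ATG, and 56.2% of those of EIF3G, above the share of all canonical transcripts and unlike K562 cells. The 26 LIN28B start codons in K562 cells had medians of 121.5 nt and 65.8% and an upstream ATG in 23.1%, and the 26 in HEK293T cells had 93.5 nt, 58.4% and 42.3%. These are descriptions with no test. Expression of the mRNAs was not measured here, and its part in them was not tested. A purine at position -3 from the start codon was present in 84.1% of canonical transcripts, in 89.0% of those with a start codon peak of any RBP in K562 cells, and in 87% of the DDX3 CC-enriched ones.

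Groups of genes were taken from lists of mRNA classes, with DDX3 as the RBP with most calls. Respiratory chain and ATP synthase subunits encoded in the nucleus stood out by count. Of 77, 57 (74.0%) had a DDX3 start codon peak in K562 cells and 59 (76.6%) in HEK293T cells, against 14.4% and 23.7% of all canonical start codons. Of the same 77, 11 (14.3%) and 7 (9.09%) were CC-enriched in all replicates, against 0.497% and 1.58% of all canonical start codons. Their median log2 fold over the CC, 2.97 and 2.43, was close to the 2.83 and 2.38 of all start codons with a DDX3 peak. In K562 cells these were NDUFA8, NDUFB2, NDUFB7, NDUFB9, NDUFB10, NDUFC1, NDUFS8 and NDUFV2 of complex I, UQCRQ of complex III, and ATP5F1A and ATP5F1E of the ATP synthase, named after their values were seen. NDUFB7 had a mean log2 fold over the CC of 4.62 ± 0.45 (SD, n = 3) on 23 to 33 reads against 15 to 23, and ATP5F1E 4.51 ± 0.52 (SD, n = 3) on 22 to 46 reads against 12 to 32. NDUFB2, NDUFB7, NDUFB10 and UQCRQ were CC-enriched in both lines, and in HEK293T cells their mean log2 folds were 3.44 ± 0.07, 4.10 ± 0.53, 3.23 ± 0.30 and 3.66 ± 0.13 (SD, n = 2). NDUFS6 was the fifth in HEK293T cells with whole CC reads, at 3.33 ± 0.36 (SD, n = 2), while ATP5MC3 and ATP5MG had 0 to 2 CC reads.

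Ribosomal protein mRNAs, which are short and highly translated, held DDX3 peaks about as often. Of 80, 61 (76.25%) had a DDX3 start codon peak in each line, against 14.4% and 23.7% of all canonical start codons. In each line 1 (1.25%) was CC-enriched in all replicates, near the 0.497% and 1.58% of all canonical start codons. With CC reads counted as at least 1, the median log2 fold of DDX3 over the CC was 1.93 at their start codons against 2.83 at all start codons with a DDX3 peak in K562 cells, and 1.57 against 2.38 in HEK293T cells. The enriched one in K562 cells was RACK1, the ribosomal scaffold protein, with 3.36 ± 0.13 (SD, n = 3) on 35 to 101 reads against 66 to 117.

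The other lists gave 0 or 1 DDX3 calls each, numbers that shares of 0.497% and 1.58% over all start codons do not set apart in lists of this size. Of 42 initiation factor genes, 24 had a DDX3 start codon peak in K562 cells and 27 in HEK293T cells, and 0 and 1 were CC-enriched in all replicates. Of 53 spliceosome and hnRNP genes the numbers were 38 and 40, with 0 and 0, and of 61 histone genes 27 and 25, with 1 and 0. Of 23 heat shock and chaperonin genes they were 20 and 19, of 17 genes known for upstream open reading frames 6 and 10, and of 10 elongation and termination factor genes 7 and 6, all with 0 and 0. The shares of these lists with a DDX3 peak were 35.3% to 87.0% in K562 cells and 41.0% to 82.6% in HEK293T cells. All lay above the 14.4% and 23.7% of all canonical start codons. Expression was not measured, and its part in this was not tested. EIF3G had 0 in every list, where 0.0597% of all canonical start codons were called in K562 cells and 0.159% in HEK293T cells. LIN28B was CC-enriched in all replicates of both lines at RPS29, a ribosomal protein, with 4.76 ± 0.54 (SD, n = 3) on 46 to 65 reads in K562 cells, and at SDHB, a subunit of complex II, with 4.41 ± 0.26 (SD, n = 3) on 7 to 11 reads. The HEK293T calls at both rest on CC reads that did not all come out whole, 0 to 88 at RPS29 and 0 to 18 at SDHB, and are uncertain.

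The genes of the profiled proteins themselves were also looked up. All 11 held a start codon peak of at least 1 library. DDX3X, taken as the gene of DDX3, held peaks in 15 libraries. The EIF3G start codon held peaks in 4 libraries, of DDX3, FAM120A and PRPF8, and none of EIF3G itself. CC-enriched peaks were seen at the start codons of IGF2BP2, with 2 peaks of DDX3, and PRPF8, with 4 peaks of LIN28B.

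Many start codons held peaks of several RBPs. In K562 cells 5226 start codons held a multiplex peak, in HEK293T cells 7707, and 4416 in both. A start codon with any multiplex peak held peaks in a median of 4 of the 50 libraries, and 1975 held one in a single library. In K562 cells 2155 (41.2%) held peaks of 1 RBP alone, of which 680 (31.6%) were of DDX3, 497 (23.1%) of PRPF8 and 30 (1.39%) of EIF3G. In HEK293T cells 2513 (32.6%) did, 820 of DDX3, 672 of PRPF8 and 62 of EIF3G. All 10 RBPs had a peak at 25 start codons in K562 cells and 56 in HEK293T cells.

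Most start codons of EIF3G also held DDX3. Of the 85 start codons with an EIF3G peak in all K562 replicates, 62 also had a DDX3 peak in all of them, 72.9% of the EIF3G list and 10.2% of the 607 of DDX3. In HEK293T cells it was 397 of 498, 79.7% of the EIF3G list and 17.8% of that of DDX3. Other RBPs shared with DDX3 as well, with 41.8% to 86.7% of their lists in K562 cells, where the list of DDX3 was the longest.

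**Figure D5:**
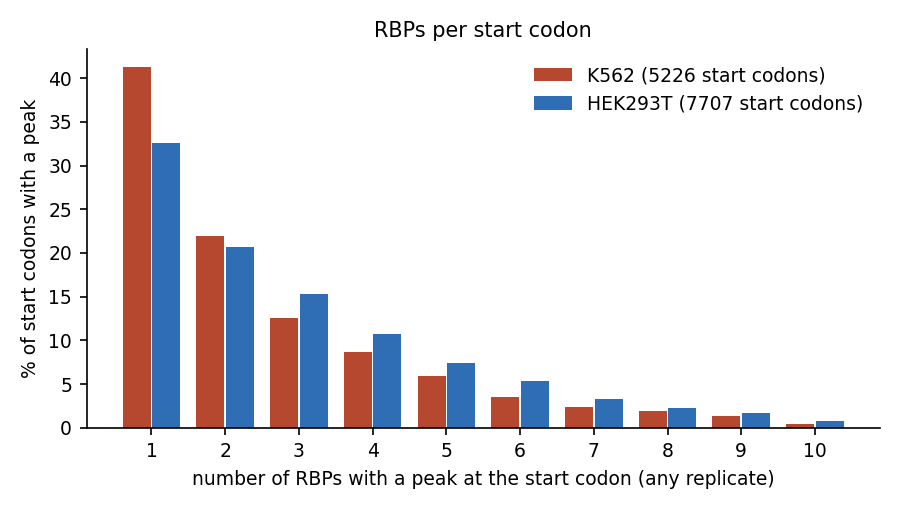
Percent of the start codons with a peak (vertical axis) by the number of RBPs with a peak there (horizontal axis) in K562 and HEK293T cells. Start codons with peaks of 1 RBP are the most common in each line (41.2% and 32.6%), and 0.478% and 0.727% hold peaks of all 10.

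The start codons with peaks in the most multiplex libraries were those of PTP4A2, a tyrosine phosphatase, and RPS25, a ribosomal protein, each in 50 of 50, followed by ACTB, cytoplasmic actin, in 49, SET, a histone chaperone, in 48 and LSM7, an Sm-like protein of mRNA decay and splicing, in 47. PTP4A2, RPS25, ACTB and SET have processed pseudogenes of near-identical sequence, so the reads mapped to them are uncertain.
PTP4A2: ttatttgccataATGaaccgtccagcc
LSM7: cggcgcgacaagATGgcggataaggag
FAM120A dominated PTP4A2, with 1277 to 2593 reads per peak in K562 cells and 827 to 1407, recovered from the deposited folds, in HEK293T cells. IGF2BP2 held 163 to 277 and 179 to 189 there, and the other RBPs 4 to 58 and 6 to 78. At LSM7 in K562 cells PRPF8 held 12 to 45 reads and FAM120A 17 to 22. In HEK293T cells, with reads recovered from the deposited folds, PRPF8 held 99 and 109 there and FAM120A 25 and 460. PRPF8 was also called CC-enriched at LSM7 in 2 HEK293T replicates. If the peaks overlap, that call and 460 FAM120A reads cannot both hold, so they are uncertain.

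In singleplex ABC, the RBFOX2 start codons with the highest fold over the external background were those of H1-4, a linker histone, ZNF362, a zinc-finger protein, and RUNX1T1, a transcriptional corepressor. H1-4 held 87 and 76 RBFOX2 reads in replicates 1 and 2 (log2 folds of 5.64 and 6.29), ZNF362 87 and 51 (5.64 and 5.71) and RUNX1T1 63 and 36 (5.17 and 5.21). Within each replicate the fold per read was the same at these start codons. Their order therefore follows the reads of the peak and not differences in the background. SLBP had its highest folds at FTL, the ferritin light chain, PTP4A2 and CLIC1, a chloride channel protein, on 3 to 23 reads per peak, too few to rank.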

How the data were processed

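The start codon rule, the gene lists and the tests were chosen with earlier results of these data known. The authors removed adapters with cutadapt 2.8, took out reads of repeats, aligned to GRCh38 with STAR 2.7.6, kept uniquely mapped reads without PCR duplicates, and called peaks per library with CLIPper. They deposited CLIPper peaks with a p-value, and, for each merged peak, its log2 fold over external RNA-seq reads and the −log10 P of that fold, at most 400. For the multiplex pools the authors deposited a chi-squared value against the CC (K562 replicates 1 and 2 and HEK293T, outside repeats), or a −log10 P and log2 fold from another test (K562 replicate 3). Of the merged peaks 68.8% to 92.0% had a CC value in the former and 91.4% to 99.2% in the latter, and peaks without one counted as not enriched.

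Merged peaks were placed on canonical coding transcripts of GENCODE release 44 (the authors used release 35). Reads per peak came from the peak names or were recovered from the deposited folds, which gave the number in the name for 92.7% to 99.2% of the peaks that have both. CC reads were solved from the chi-squared value within 0.2%, counted as at least 1 in a fold, and came out whole for 74.8% to 99.3% of peaks per K562 library and 53.4% to 89.1% per HEK293T library, so HEK293T folds are estimates. No fold is printed where the CC held 3 reads or fewer. Depth outside peaks was not used.

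Each of 5 measures was compared between RBPs over the 50 multiplex libraries. RBP labels were permuted within pools in all 100000 ways (exact, two-sided, the smallest p being 1e-05), with Benjamini-Hochberg adjustment over 10 RBPs and a threshold of 0.05. The pool served as the replicate block because the 10 libraries of a pool share a lysate. The same number in K562 and HEK293T cells marks different pools and paired nothing. The code was tested on simulated data. Named start codons were, for each RBP, the first 3 by mean log2 fold among those CC-enriched in all 3 K562 replicates and not within 30 nt of an adapter-like sequence, the 5 with peaks in the most libraries, and the first 3 per singleplex RBP. Adapter-like sequences lay beside 169 of the start codon peaks. Analyses used Python 3.11.15, numpy 2.4.6, pandas 2.3.3, scipy 1.17.1, ncls 0.0.70 and matplotlib 3.10.9. Alternatives covered the window, membership, joined peaks, enrichment limits, cell line, each pool left out, and no replicate block, with 3 added after seeing the data.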

Additional observations from a re-analysis of the deposited data

Results flagged for a closer look

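LIN28B had a start codon share of nearby peaks that was -1.72 points from the mean of the other 9 RBPs in K562 cells, below it in 3 of 3 pools, and 1.56 points from it in HEK293T cells, above it in 2 of 2 pools. IGF2BP2 had a share of start codon peaks within 50 nt of a 5′ splice site that was 2.74 points from the mean of the other 9 in K562 cells, above it in 3 of 3 pools, and -1.35 points from it in HEK293T cells, below it in 2 of 2. Both were picked out because all pools of one line lay on one side and all of the other line on the opposite side. The difference between lines was not tested.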

How the results depend on the processing

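Results are given as the number of RBPs past the threshold in the exact permutation test and, for DDX3 and EIF3G, the difference from the other 9 RBPs in percentage points. Without the replicate block the numbers were 2, 1, 3, 2 and 2 in the 5 measures, as with it, and DDX3 and EIF3G had adjusted p = 0.000199998 and 0.00109999 for the share of peaks (permutation test). HEK293T pools alone gave 0 in each measure, since 2 pools allow no p below 0.01, with 2 RBPs (share of peaks), 0 (nearby), 1 (upstream), 1 (CC-enriched) and 2 (5′ splice site) at an unadjusted p under 0.05. There the share of peaks differed by 6.51 (DDX3) and 7.99 (EIF3G), the upstream share by 6.50 (EIF3G), the CC-enriched share by 17 (DDX3) and 11.6 (EIF3G) and the 5′ splice site share by -8.87 (DDX3). K562 pools alone gave 0 (nearby), 1 (upstream, PUM2) and 0 (5′ splice site), with 1, 3 and 2 at an unadjusted p under 0.05, 9.04 for EIF3G upstream and -6.94 for DDX3 near 5′ splice sites.

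The nearby share of PUM2 was lost (0 RBPs) with a window of 25 or 100 nt, with peaks that cover the codon, with joined peaks and with externally enriched peaks alone, and leaving out pools gave 0 to 1. At an unadjusted p under 0.05 it was 0 RBPs for the windows and covering peaks and 1 otherwise. EIF3G reversed to -0.52 with the window of 25 nt and DDX3 to 2.62 with covering peaks. For the upstream share 1 RBP remained with covering peaks (PRPF8), with joined peaks (PUM2) and without adapter-like sites (PUM2), and leaving out pools gave 1 to 4. EIF3G had 4.13 with the window of 25 nt, 9.31 with covering peaks, 7.93 with joined peaks and 7.65 without adapter-like sites, none past the threshold, and 6.40 to 8.89 with pools left out. For the CC-enriched share, externally enriched peaks alone gave 6 RBPs (DDX3, EIF3G, FAM120A, IGF2BP2, LIN28B and RBFOX2), and external RNA-seq reads as the background gave 20.7 for DDX3 and 8.32 for EIF3G, neither past the threshold. Nearly all merged peaks passed the external limits in some K562 libraries, 98.8% to 99.7% of them. These were DDX3 and ZC3H11A in replicate 1, SF3B4 and ZC3H11A in replicate 3, and PUM2 in all 3 replicates. The other K562 libraries lay between 25.4% and 73.9%, so settings that use the external background did not compare the RBPs on like terms. Near 5′ splice sites 4 RBPs passed with the window of 100 nt (DDX3, EIF3G, PRPF8 and ZC3H11A), 1 with joined peaks (ZC3H11A) and 1 with externally enriched peaks (PRPF8), where DDX3 had -8.55 and -8.07. The cause of these changes was not tested. Counting numbers of RBPs and the DDX3 and EIF3G differences together, 127 values stayed on the same side or within 1.5 times, 27 numbers moved further and 20 differences no longer passed. A like number can hide other RBPs: the upstream share with the window of 25 nt called LIN28B, PRPF8 and PUM2, the external reads called FAM120A, IGF2BP2 and PUM2 and none of the RBPs called over the CC, and the 5′ splice site share with covering peaks called DDX3 and PRPF8. Depth limits PUM2 most, and CC calls in HEK293T cells rest on estimated reads.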
